A study of Homo sapiens with 2 samples.

Results

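The miRNAs numbered from 7000 to below 9000 are human entries that came late to the miRNA registry. They were taken from the probe names of the arrays by this number alone, leaving out miR-7641, miR-7975 and miR-7977, which left 107 of the 2549 miRNAs read on the arrays. The numbers use no measured value, though the range was picked with earlier results of these data known. RNA came from exosomes, small vesicles released into the medium, of the line FaDu, grown from a squamous cell carcinoma of the human hypopharynx. One-colour miRNA arrays were hybridized with 200 ng of labelled RNA each, 1 array for cells given the control plasmid lentivirus (oe-NC) and 1 array for cells given the plasmid lentivirus that overexpresses the lncRNA HOTTIP (oe-HOTTIP). The labels name a lentivirus, while the methods describe pcDNA3.1 plasmids transfected with a lipid reagent, and neither says how many cultures went into a preparation. Each group being 1 array, differences have no replicate check and carry no p-value, and precision is limited by this number. The labels disagree on which array is which, since the description of an array gives the group that its title and treatment do not. Arrays are called by their titles here, and if the descriptions are right, every direction below is the reverse.

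MicroRNAs are short RNAs that are cut from hairpin precursors and loaded into Argonaute proteins. The seed, bases 2 to 8 of the mature strand, pairs with target mRNAs and leads to their repression. A hairpin can release a strand from its left side (the 5p arm) or its right side (the 3p arm), and usually 1 of them is kept. Many entries with high numbers were annotated from sequencing reads in small amounts, and part of them lie in short introns whose hairpins are released by splicing in place of the enzyme Drosha (mirtrons). Exosomes carry miRNAs out of cells, and little is established about the function of most of the miRNAs described here.

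The mature sequences of the miRNAs detected on at least 1 array are shown first, because the results below differ with their arm, their G content and their probes. They are the RefSeq entries placed on GRCh38.p14, written 5′ to 3′ with the seed in capitals. RefSeq entries were matched by name for 94 of the 107 miRNAs, and for 17 of the 18 detected ones. miR-8089 is named only.
miR-7107-5p: uCGGCCUGgggaggaggaaggg
miR-7108-5p: gUGUGGCCggcaggcgggugg
miR-7110-5p: uGGGGGUGuggggagagagag
miR-7113-5p: uCCAGGGAgacagugugugag
miR-7150: cUGGCAGGgggagaggua
miR-7152-5p: uUUCCUGUccuccaaccagacc
miR-7154-5p: uUCAUGAAcugggucuagcuugg
miR-7159-5p: uUCAACAAggguguaggaugg
miR-7704: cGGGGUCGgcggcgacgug
miR-7844-5p: aAAACUAGgacuguguggugua
miR-7845-5p: aAGGGACAgggagggucgugg
miR-7847-3p: cGUGGAGGacgaggaggaggc
miR-7850-5p: gUUUGGACauaguguggcugg
miR-8063: uCAAAAUCaggagucggggcuu
miR-8069: gGAUGGUUgggggcggucggcgu
miR-8071: cGGUGGACuggagugggugg
miR-8072: gGCGGCGGggagguaggcag
The 94 miRNAs with a sequence had 94 different seeds, so they form no seed family among themselves. Of the 17 detected ones, 16 had a seed that no other miRNA on the array with a RefSeq sequence shares. The exception was miR-7110-5p, whose seed GGGGGUG also stands in miR-6752-5p.

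The share of these miRNAs that was detected was near that of all miRNAs on both arrays. Detection was taken from the call of the scanner software for each miRNA. On the array titled oe-NC 12 of the 107 miRNAs (11.2%) were detected, against 12.9% of all miRNAs, and on the array titled oe-HOTTIP 18 (16.8%) were, against 15.3% of all miRNAs. The 12 were among the 18, so that 12 miRNAs were detected on both arrays, 6 on the array titled oe-HOTTIP alone and none on the array titled oe-NC alone. Of all 2549 miRNAs, 129 were detected on the array titled oe-HOTTIP alone and 67 on the array titled oe-NC alone. Detection on at least 1 array was 16.8% for these miRNAs and 17.9% for all, and the other 89 (83.2%) were detected on neither array. When a miRNA was called detected by over 50% of its spots being well above background, the counts were 9 and 12. The shares of all miRNAs under this stricter rule are not given here, so these counts have no such comparison.

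Each miRNA was read by 20 spots on each array, and its intensity is the mean over its probes after background subtraction. The array titled oe-HOTTIP was brighter as a whole, with a median log2 ratio of 0.67 before scaling over the 261 miRNAs detected on both arrays. For this reason intensities were divided by the 90th percentile of these 261 miRNAs on the same array, 279.9 on the array titled oe-NC and 439 on the array titled oe-HOTTIP. Log2 differences below are after this scaling, intensities are before it, and spreads are SDs over spots, which are technical errors within an array. For each miRNA the SD is pooled within its probes, so it leaves out differences between probes and can be far below the range of its spots. Negative control spots had an intensity of 3.87 ± 2.37 (SD, 976 spots) on the array titled oe-NC and 3.45 ± 2.21 (SD, 975 spots) on the array titled oe-HOTTIP. The authors' normalized table runs the other way: by its column names, 11 of the 12 miRNAs detected on both arrays take the opposite sign, the exception being miR-8069, and the 6 others stand at its lowest value under oe-HOTTIP. Its column named oe-NC correlated with the scanner values of the array titled oe-HOTTIP at r = 0.998 across 261 miRNAs and with those of the array titled oe-NC at r = 0.824. The median of that column over miRNAs detected on both arrays was 3.24, and that of the column named oe-HOTTIP was 3.43. These are log2 values by this comparison. The study picked its candidate miRNAs, miR-150-5p among them, from miRNAs it reported as lower with HOTTIP. Here miR-150-5p was higher on the array titled oe-HOTTIP, with a log2 difference of 1.38. It read 4.04 on the array titled oe-NC, about the mean of the negative controls there, and 16.6 on the array titled oe-HOTTIP. The directions of the other candidates were not compared. Which naming is right was not settled by the files.

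Of the 12 miRNAs detected on both arrays, 6 were higher and 3 lower on the array titled oe-HOTTIP by the 2-fold threshold of the methods. The corresponding shares of the 261 miRNAs detected on both arrays were 18.0% and 21.1%. The median log2 difference of the 12 was 1.01, beside 0.02 over the 261. It was 0.14 with normexp and an offset of 50, 0.54 with normexp and no offset, and 1.66 without scaling. With the 6 miRNAs detected on the array titled oe-HOTTIP alone, which had lower bounds over 2-fold, 12 of the 107 (11.2%) were higher, against 6.08% of all miRNAs, and 3 (2.80%) were lower, against 4.51%. A miRNA detected on the array titled oe-HOTTIP alone can be counted as higher but never as lower. Of the 155 higher ones over all miRNAs, 108 were such bounds. Normexp is a background correction that models each spot as background plus signal, and an offset added after it damps the differences of dim spots. The count of higher miRNAs fell to 2 with normexp and an offset of 50 and to 6 with normexp and no offset. It was 6 when bounds were left out, against 47 of all 2549 miRNAs. Under the stricter detection rule it was 5 with a median of 1.61, where the rule also changed which miRNAs set the scaling. With the scaling kept it was 4 with a median of 1.11. Shares over all miRNAs are not given here with normexp or under the stricter rule. Whether these miRNAs changed more than the others was not tested.

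**Figure D1:**
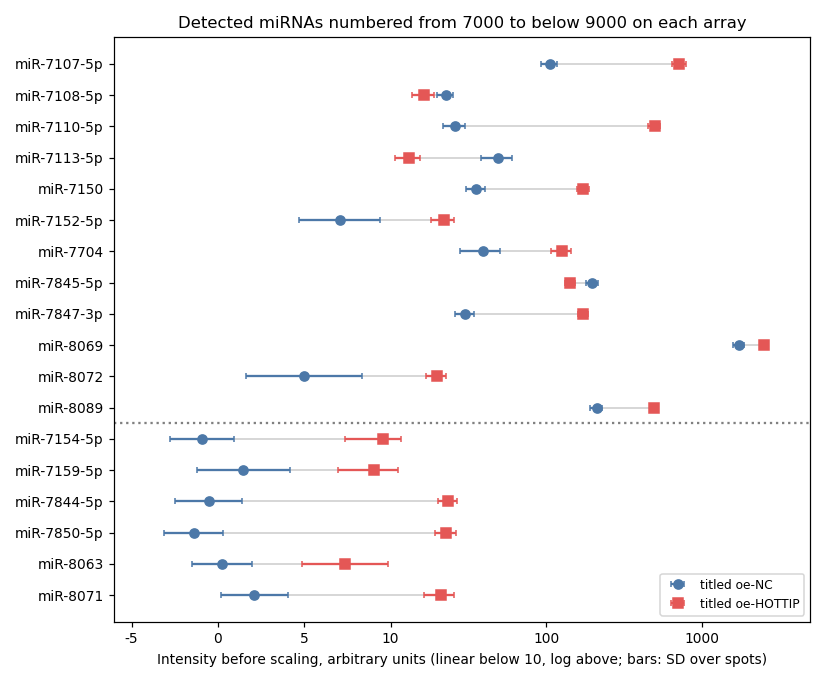
Intensity before scaling of the 18 detected miRNAs, on an axis linear below 10 and logarithmic above. Circles are the array titled oe-NC and squares the array titled oe-HOTTIP, with bars for the SD over spots, pooled within probes. The 12 miRNAs above the dotted line were detected on both arrays, and the 6 below it, with intensities of 2.10 or lower on the array titled oe-NC, on the array titled oe-HOTTIP alone.

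The hairpins miR-7106 to miR-7114 held the widest differences up and down among the 12 miRNAs detected on both arrays. Their 5p arms were detected for 4 of 9 hairpins (44.4%) and their 3p arms for none of 9. Both arms together had 22.2% detected, beside 17.9% of all miRNAs. miR-7110-5p had an intensity of 25.8 ± 4.16 (SD, 20 spots) on the array titled oe-NC and 499.6 ± 44.7 (SD, 20 spots) on the array titled oe-HOTTIP. Its spots reached from 16.0 to 31.0 on the first array and from 416.6 to 566 on the second, so the arrays did not overlap. After scaling, the log2 difference was 3.62 with a spread of 0.27, which is 12.3-fold. The mature strand lies within PDIA5, a gene for a protein disulfide isomerase of the endoplasmic reticulum, on the same strand. miR-7107-5p, which lies within KDM2B, a gene for a histone demethylase, went from 106 ± 12.8 (SD, 20 spots) to 719.8 ± 73.5 (SD, 19 spots). This is a scaled log2 difference of 2.12 with a spread of 0.23, again without overlap of the spots. Both miRNAs were at least 2-fold higher under each of 13 alternatives that keep the direction of the scanner output, with log2 differences from 2.16 to 4.28 for miR-7110-5p and from 1.67 to 2.77 for miR-7107-5p.

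The other detected 5p arms of this block were lower on the array titled oe-HOTTIP. miR-7108-5p, within LMNB2, a gene for a B-type lamin, had 22.6 ± 2.55 (SD, 20 spots) and 16.4 ± 2.67 (SD, 19 spots), a scaled log2 difference of -1.11 with a spread of 0.29. This is close to the threshold, and it was -0.46 without scaling. With an offset of 50 in normexp it was -0.67. miR-7113-5p, within NDUFS8, a gene for a subunit of respiratory complex I, had 49.4 ± 11.4 (SD, 19 spots) and 13.1 ± 2.40 (SD, 20 spots). Its log2 difference of -2.56, with a spread of 0.42, came from a pair of probes that went in opposite directions. The first probe read 0.993 and 8.76, a scaled log2 difference of 2.49 in which the value on the array titled oe-NC was below the negative controls. The second read 97.8 and 17.5, a scaled log2 difference of -3.13. The spots of both arrays overlapped, and the summary value of miR-7113-5p rests on its second probe.

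The 3p arms of these hairpins gave no detected signal. miR-7110-3p had -2.17 ± 1.86 (SD, 19 spots) on the array titled oe-NC and -1.50 ± 2.09 (SD, 20 spots) on the array titled oe-HOTTIP, at or below the negative controls, while its 5p arm was the one with the 12.3-fold difference. Over the 22 hairpins with both arms among the 107 miRNAs, 7 of the 5p arms (31.8%) and none of the 3p arms were detected. The share over all miRNAs was 17.9%, and over the 3p arms of miR-6715 to miR-6895 it was 11.0%. The 3p arms of those 7 hairpins lay between -2.41 and 2.64 on the array titled oe-NC and between -2.75 and 1.44 on the array titled oe-HOTTIP. Values below 0 come from background subtraction and are no level. Probes of different arms were not compared in level, since each probe has its own response.

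**Figure D2:**
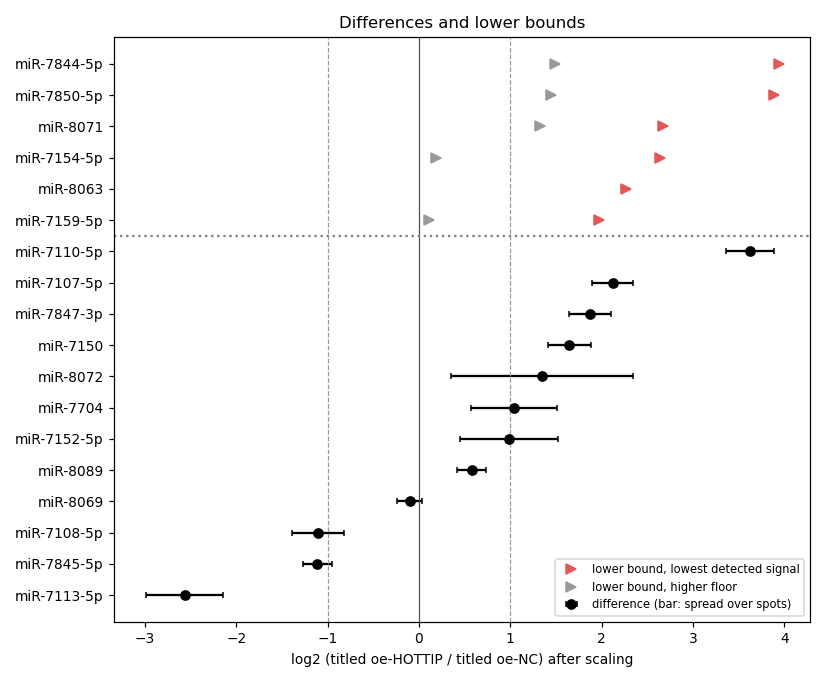
Log2 differences of the 12 miRNAs detected on both arrays (circles, with bars for the spread over spots) and, above the dotted line, lower bounds for the 6 miRNAs detected on the array titled oe-HOTTIP alone (triangles, red from the lowest detected signal and grey from the higher floor), with 2-fold as dashed lines. miR-7110-5p at 3.62 and miR-7113-5p at -2.56 mark the ends of the 12 differences, and the probes of miR-7113-5p went in opposite directions. Of the 6 bounds, 3 stay over 2-fold with the higher floor.

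In the block from miR-7150 to miR-7162, 4 of 25 miRNAs (16.0%) were detected, beside 17.9% of all miRNAs. On the array titled oe-HOTTIP 3 of the 4 were past 2-fold upward, beside 33.9% of all miRNAs detected on at least 1 array. None of the 4 was past 2-fold downward, beside 25.2% of those miRNAs. Of the 3 higher ones, 2 are bounds that fell to 1.14-fold and 1.08-fold with the higher floor described below. miR-7150, within DENND1A, a gene for an exchange factor of endocytosis, had 35.3 ± 4.85 (SD, 19 spots) and 173.5 ± 14.8 (SD, 19 spots). Its spots did not overlap between the arrays, and the log2 difference was 1.65 with a spread of 0.23. It was 0.74 with normexp and an offset of 50. miR-7152-5p, within CDH23, a gene for a cadherin of sensory hair cells, had 7.05 ± 2.33 (SD, 20 spots) and 21.9 ± 3.80 (SD, 19 spots). Its log2 difference of 0.99, with a spread of 0.54, lay just under 2-fold with overlapping spots, and on the array titled oe-NC 3 of its 20 spots were well above background. It was 1.64 without scaling, and normexp (offset 50) gave -0.28. miR-7154-5p and miR-7159-5p were detected on the array titled oe-HOTTIP alone.

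Between miR-7515 and miR-7856, 5 of 21 miRNAs (23.8%) were detected, beside 17.9% of all miRNAs. On the array titled oe-HOTTIP 4 of the 21 were higher (19.0%, beside 6.08% of all miRNAs), 2 of them as bounds. The 1 lower miRNA was 4.76% of the 21, beside 4.51% of all miRNAs. miR-7847-3p was the 1 detected miRNA among 29 with a 3p name, from an entry without a 5p arm on the array. It had 30.1 ± 4.07 (SD, 18 spots) and 173 ± 13.4 (SD, 20 spots), a scaled log2 difference of 1.87 with a spread of 0.23 and no overlap of spots. With normexp and an offset of 50 it was 0.81. Its mature strand lies within LSP1, a gene for an actin-binding protein of leukocytes. miR-7845-5p had 197 ± 17.4 (SD, 20 spots) and 143 ± 9.98 (SD, 20 spots), a scaled log2 difference of -1.11 with a spread of 0.16. Before scaling it was lower by 0.46 on the log2 scale, so its place past 2-fold rests on the scaling. It lies within KLF7, a gene for a zinc finger transcription factor, on the opposite strand.

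miR-7704 lies in a HOX locus. Its mature strand lies within the span of HOXD1, a homeobox gene, on the same strand, and of the lncRNA gene HAGLR on the opposite strand, in the HOXD cluster. HOTTIP itself comes from the HOXA cluster on another chromosome. The intensity of miR-7704 was 39.1 ± 11.3 (SD, 20 spots) on the array titled oe-NC and 126 ± 19.3 (SD, 19 spots) on the array titled oe-HOTTIP. The log2 difference was 1.04 with a spread of 0.47. Of 11 alternatives that gave it a value, 6 brought it under 2-fold, down to 0.35 with normexp and an offset of 50. Under the stricter detection rule, with the scaling changed or kept, miR-7704 was not detected on either array and had no value. Its spots overlapped between the arrays, and the signal came from 1 of its probes, which read 77.8 and 249, while the other read 0.315 and 3.46.

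Of the 38 miRNAs from miR-8052 to miR-8089, 5 were detected (13.2%, beside 17.9% of all miRNAs). miR-8069 had 1731 ± 139 (SD, 20 spots) on the array titled oe-NC and 2532 ± 127 (SD, 18 spots) on the array titled oe-HOTTIP, a scaled log2 difference of -0.10 that is smaller than its spread of 0.14. Its probes gave -0.09 and -0.12, and read 2454.7 and 1007.5 on the array titled oe-NC, a gap that its SD leaves out. In the normalized table it stood 1.20 higher on the log2 scale in the column named for oe-NC, which follows the scanner values of the array titled oe-HOTTIP, so whether it differed depends on the normalization. Its mature sequence is present in a pair of loci of chromosome 21, and the array cannot tell which of them gave the signal. miR-8089 had 211 ± 19.2 (SD, 19 spots) and 495 ± 30.5 (SD, 19 spots), a scaled log2 difference of 0.58 with a spread of 0.16. Its spots did not overlap between the arrays after scaling, and the difference reached 1.23 without scaling. miR-8072, at the start of SBNO1, had 4.98 ± 3.37 (SD, 20 spots) and 19.9 ± 2.88 (SD, 19 spots), a scaled log2 difference of 1.35 with a spread of 1.00. It was -0.26 with normexp and an offset of 50, and 1 of its probes was at -0.827 and 2.58, no higher than the negative controls on either array.

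The 6 miRNAs detected on the array titled oe-HOTTIP alone can be given lower bounds only. Each bound sets the scaled signal on that array against the array titled oe-NC, using there the lowest signal of any detected miRNA or, if greater, that of the miRNA itself. That lowest signal, 0.976 before scaling, was under the mean of the negative controls, so the bounds are not strict. A higher floor was set at the signal where 50% of the 51 miRNAs around it in rank were detected, 5.32 before scaling. miR-7844-5p went from -0.54 ± 1.95 (SD, 20 spots) to 23.4 ± 3.34 (SD, 20 spots), at least 15.3-fold higher, and 2.81-fold with the higher floor. miR-7850-5p went from -1.40 ± 1.70 (SD, 20 spots) to 22.7 ± 3.51 (SD, 20 spots), at least 14.8-fold higher, and 2.72-fold with the higher floor. miR-8071, whose entries lie in the locus of the immunoglobulin heavy chain, went from 2.10 ± 1.93 (SD, 20 spots) to 21.0 ± 4.66 (SD, 20 spots), at least 6.35-fold higher and 2.51-fold with the higher floor. In these 3 miRNAs all 20 spots were well above background on the array titled oe-HOTTIP and none on the array titled oe-NC. With detection by over 50% of such spots the bounds were 1.97-fold for miR-7844-5p, 1.91-fold for miR-7850-5p and 1.76-fold for miR-8071, each under 2-fold, and with the scaling kept they were 1.39-fold, 1.35-fold and 1.25-fold. The bound of miR-8071 was also under 2-fold, at 1.90-fold, with normexp and no offset. Normexp with an offset of 50 gave no bound for any of the 6 miRNAs.

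The remaining 3 were dimmer. miR-7154-5p, which lies in no other annotated gene, had 9.53 ± 2.19 (SD, 19 spots) on the array titled oe-HOTTIP, with 2 spots well above background. miR-7159-5p had 9.03 ± 2.08 (SD, 20 spots) there, with 4 such spots, and miR-8063, within MEIS2, a gene for a homeobox cofactor of HOX proteins, had 7.38 ± 2.49 (SD, 20 spots), with 1. On the array titled oe-NC they stood at -0.911, 1.47 and 0.225, and the spots of miR-7159-5p and miR-8063 overlapped between the arrays. The bounds were at least 6.22-fold for miR-7154-5p, 3.91-fold for miR-7159-5p and 4.82-fold for miR-8063. With the higher floor they were 1.14-fold and 1.08-fold for the first pair, and for miR-8063 none was given. With this floor 9 of the 107 miRNAs were at least 2-fold higher, against 3.37% of all miRNAs.

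The 89 miRNAs detected on neither array lay between -3.51 and 5.59 on the array titled oe-NC, with a median of -1.16, and between -3.91 and 4.12 on the array titled oe-HOTTIP, with a median of -1.05. Of these, 86 fell short of the average negative control on both arrays. The highest of them were miR-7974, at 5.59 ± 1.41 (SD, 19 spots) and 2.76 ± 0.665 (SD, 16 spots), and miR-8060, at 0.605 ± 1.90 (SD, 20 spots) and 4.12 ± 1.75 (SD, 20 spots). miR-8485, known for a repeated dinucleotide that TDP-43 binds, was at -1.32 ± 1.87 (SD, 20 spots) and -2.17 ± 1.96 (SD, 20 spots). The block from miR-7973 to miR-7978 had no detected miRNA among its 4. A signal under the detection limit of the arrays does not show that a miRNA was absent.

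Agreement between probes varied among the 12 miRNAs detected on both arrays. In 10 of them both probes had the same sign, in miR-7113-5p they had opposite signs, and in miR-8072 a probe was below 0 on the array titled oe-NC. Among all miRNAs detected on both arrays, 13.8% had probes of opposite sign. For miR-7110-5p the probes gave 3.71 and 3.54, for miR-7847-3p 1.94 and 1.82, for miR-7150 1.47 and 1.80 and for miR-7845-5p -1.17 and -1.07. For miR-7704 and miR-8072 the dimmer probe read 3.46 and 2.58 on the array titled oe-HOTTIP, about the level of the negative controls, so that the other probe gave the signal.

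**Figure D3:**
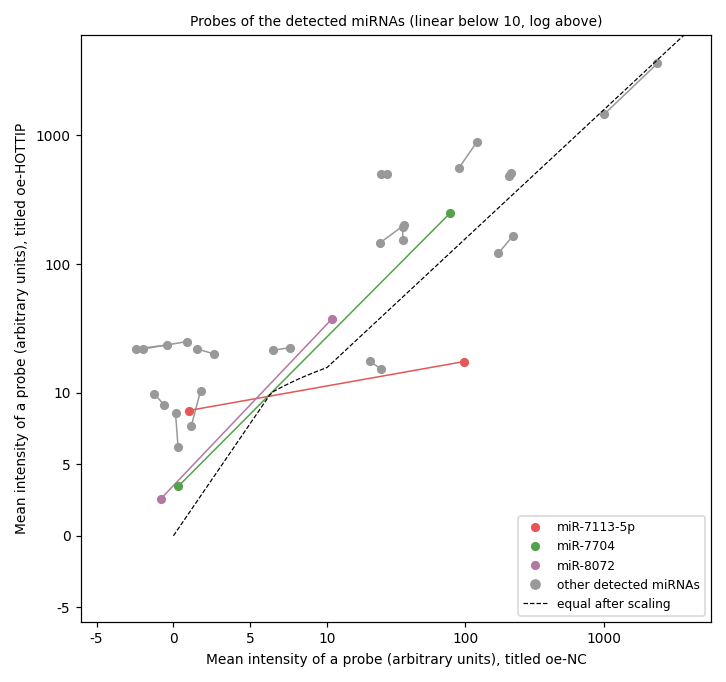
Mean intensity of each probe of the 18 detected miRNAs on the array titled oe-NC (horizontal axis) and on the array titled oe-HOTTIP (vertical axis), on axes linear below 10 and logarithmic above, with lines joining the probes of a miRNA and a dashed line for equal values after scaling. The probes of miR-7113-5p fall on both sides of the dashed line, and for miR-7704 and miR-8072 1 probe of each lies near 0 on both axes.

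Among the 94 miRNAs with a sequence, the 17 detected ones were richer in G than the 77 not detected. The median share of G was 57.1% in the detected ones, and 29.2% in the others. For G and C together the medians were 66.7% and 54.2%. A run of 3 or more G stood in 13 of the 17 (76.5%) and in 25 of the 77 (32.5%). Over the other miRNAs of the array, 52.2% of 370 detected ones and 28.3% of 1784 not detected ones had such a run. miR-7110-5p, miR-7150 and miR-8069 each have a run of 5 G, as their sequences above show. Of the 11 detected on both arrays 9 held a run of 3 or more, and miR-7152-5p and miR-7847-3p did not.

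The 6 miRNAs detected on the array titled oe-HOTTIP alone had a median of 35.0% G, and the 11 detected on both arrays with a sequence had 57.9%. Over the other miRNAs of the array the order was the reverse, with 45.5% for 103 detected on the array titled oe-HOTTIP alone and 40.9% for 207 detected on both. Over these 11 miRNAs, Spearman's rho between the share of G and the log2 difference was 0.37 and Pearson's r was 0.20, and over the 218 such miRNAs of the array they were 0.16 and 0.13. These values are correlations across miRNAs, which share both arrays and are not independent replicates. The G-rich miRNAs included the widest difference upward, miR-7110-5p with 66.7% G, and also miR-7108-5p with 61.9% G, which was lower. The composition of the probes was not given in the files, and its part in the signals was not tested.

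**Figure D4:**
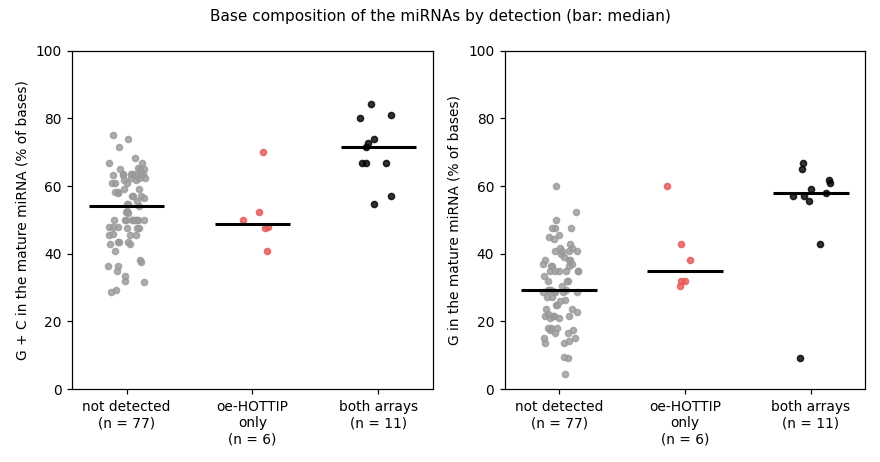
Share of G and C together (left) and of G (right) in the mature sequence, in percent of bases, for 77 miRNAs detected on neither array, 6 on the array titled oe-HOTTIP alone and 11 on both arrays, with bars for medians. Points for miRNAs detected on both arrays sit mostly above 50% G, apart from miR-7152-5p at 9.09% and miR-7113-5p at 42.9%.

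The positions on GRCh38.p14 place most of these miRNAs inside other genes. Of the 17 detected ones with a position, 16 lay within the span of another gene and 13 within a protein-coding one. Of the 77 not detected, 63 and 53 did. miR-7110-5p, with the widest difference, is at chr3:123161799-123161819 on the plus strand, and PDIA5 spans chr3:123067025-123162104. miR-7107-5p is at chr12:121444326-121444347 on the minus strand, within KDM2B at chr12:121408461-121582279. miR-7113-5p is at chr11:68032865-68032885 on the plus strand, within NDUFS8 at chr11:68030681-68036644. miR-7704 is at chr2:176188843-176188861 on the plus strand. The table of genes gives spans alone, so exon and intron were not told apart here, and the RNA of these genes was not measured on the arrays.

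By arm, 10 of the 28 miRNAs with a 5p name (35.7%) were detected on at least 1 array, 1 of 29 with a 3p name (3.45%) and 7 of 50 with neither (14.0%), beside 17.9% of all miRNAs. Of those with a 5p name 6 were higher (21.4%, beside 6.08% of all miRNAs) and 3 lower (10.7%, beside 4.51%), so that each of the 3 lower miRNAs was a 5p arm. Of the 6 higher ones, 4 were bounds. The 5p arms of miR-6715 to miR-6895, the block closest to these in number, were detected for 58 of 176 (33.0%), with 29 at least 2-fold higher (16.5%) and 8 lower (4.55%). The 3p arms of that block were detected for 19 of 173 (11.0%), with 1 higher (0.578%) and 18 lower (10.4%). Of the 189 miRNAs numbered from 5000 to below 6700, 34 (18.0%) were detected, with 9 higher (4.76%) and 11 lower (5.82%). These sets are placed side by side without a test, since 1 array per group allows none.

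miR-6752-5p, which shares the seed of miR-7110-5p, has the mature sequence gGGGGGUGuggagccagggggc. It was detected on the array titled oe-HOTTIP alone, with 5.14 ± 2.11 (SD, 20 spots) and 16.4 ± 1.74 (SD, 18 spots), at least 2.03-fold higher and 1.96-fold with the higher floor.

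The cell type was read from markers of squamous epithelium. Of 8 such miRNAs, 5 were detected on both arrays, among them miR-205-5p at 415 and 489.9, 1 on the array titled oe-HOTTIP alone, and miR-203a-3p and miR-429 on neither. Their summed intensity was 530.4 on the array titled oe-NC and 639.9 on the array titled oe-HOTTIP before scaling, and 1.89 and 1.46 after it. Of the 5 detected on both arrays, 4 had a log2 difference below 0, from -0.41 to -0.65, and miR-141-3p had 0.17. Of 7 blood-cell markers, 5 were detected on both arrays, with a summed intensity of 2282 and 2628 before scaling and 8.15 and 5.98 after it, mostly from miR-451a at 2233 and 2552 before scaling. miR-142-3p and miR-142-5p were detected on neither array. miR-486-5p and miR-150-5p passed 2-fold among the blood-cell markers, with log2 differences of -1.75 and 1.38, and none of the epithelial markers detected on both arrays did. Each had a dim reading near the negative controls, 5.91 for miR-486-5p on the array titled oe-HOTTIP and 4.04 for miR-150-5p on the array titled oe-NC. The part of such RNA in the differences of the miRNAs described here was not tested.

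**Figure D5:**
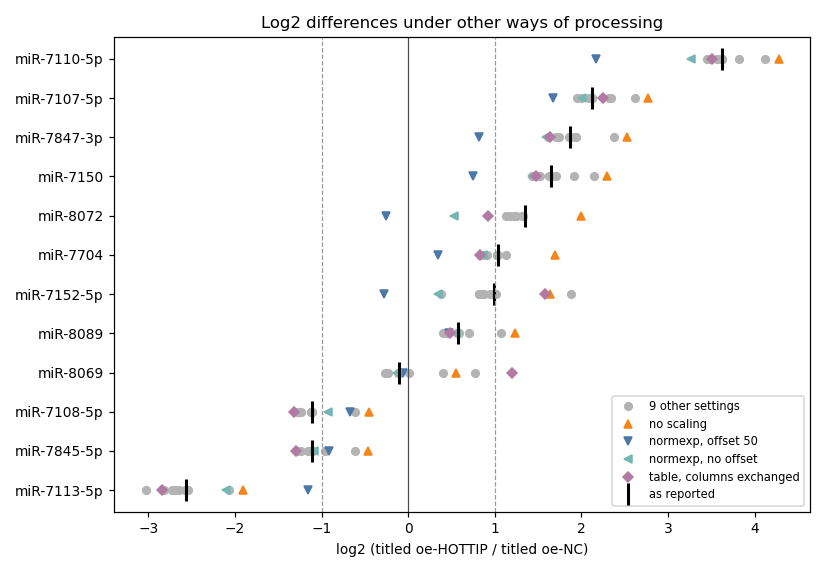
Log2 differences of the 12 miRNAs detected on both arrays as reported (black bars) and under 13 other ways of processing (other symbols, named in the legend where set apart), with 2-fold as dashed lines. miR-7110-5p, miR-7107-5p and miR-7113-5p stay past 2-fold throughout, and normexp with an offset of 50 puts miR-8072 and miR-7152-5p below 0. The probes of miR-7113-5p went in opposite directions, and under the stricter detection rule its value is a bound. miR-7704 and miR-8072 have values under 11 of the 13, since the stricter rule, with the scaling changed or kept, gave them none.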

How the data were processed

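Per array, the authors deposited scanner output that gives each spot a background-subtracted intensity, and for both arrays together a table of normalized log2 values. Agilent Feature Extraction is 10.10 in the submitters' processing notes and 11.5.1.1 in the scanner output. Normalization to the 90th percentile in GeneSpring is given by the methods.

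Without control and outlier spots, a mean was taken over the spots of a probe, and then over the probes of a miRNA. No spot was saturated. The mean intensities were scaled by the 90th percentile of miRNAs detected on both arrays, and log2 was taken after scaling. The threshold was 2-fold. Between 18 and 20 spots of each detected miRNA were used per array. Their SDs, pooled within probes, were combined as relative errors. The summary was tested on simulated data. Alternatives were 5 other scalings, normexp background correction, the summed intensity, the normalized table with its columns as named or exchanged, another detection rule with the scaling changed or kept, a higher floor or no bounds, outlier spots kept and the brightest probe. Normexp used median spot signals, since the output holds no mean.

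Every miRNA detected on at least 1 array is named, with miR-7704 and miR-8485 added for position and sequence. miR-7974, miR-8060, miR-6752-5p and 3p arms were chosen after their values were seen. Members, lists and alternatives were chosen with earlier results of these data known. Sequences came from RefSeq on GRCh38.p14. Normexp ran in limma 3.58.1 under R 4.3.3, and the rest in Python 3.11.15 with pandas 2.3.3 and numpy 2.4.6. Figures were drawn with matplotlib 3.10.9.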

Additional observations from a re-analysis of the deposited data

How the results depend on the processing

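Percentile scaling over other miRNAs, quantile normalization, the summed intensity, outlier spots kept and the brightest probe left the counts within 1.5 times of 12 higher and 3 lower. Without scaling 1 miRNA was lower and the median log2 difference was 1.66. Normexp with an offset of 50 gave 2 higher, 1 lower and a median of 0.14, and with no offset 6 higher and a median of 0.54. Detection by over 50% of spots, which also changed the scaling, gave 5 higher, 1 lower and a median of 1.61. With the scaling kept, an alternative chosen after seeing the data, it gave 4 higher, 3 lower and a median of 1.11. Leaving out bounds gave 6 higher, against 47 of all 2549 miRNAs. Shares over all miRNAs are not given here for the other alternatives above. By the column names of the normalized table, 3 were higher, 9 lower and the median was -1.06. The cause of these changes was not tested, apart from bounds left out and columns that run opposite to the scanner output. Under that table the log2 value was -2.25 for miR-7107-5p, 1.32 for miR-7108-5p, -3.51 for miR-7110-5p, 2.84 for miR-7113-5p, -1.47 for miR-7150, -0.83 for miR-7704, 1.30 for miR-7845-5p, -1.64 for miR-7847-3p and -0.92 for miR-8072. As bounds it was -0.30 for miR-7154-5p, -0.22 for miR-7159-5p, -1.78 for miR-7844-5p, -1.73 for miR-7850-5p and -1.60 for miR-8071. miR-8072 also changed sign with normexp and an offset of 50, to -0.26. Apart from the table as named, 134 values of single miRNAs moved by less than their spread over spots, 87 moved by more and 1 changed sign after being past 2-fold. Cases in which an alternative gave a miRNA no value are not in this tally. Normexp with an offset of 50 gave no value for any of the bounds. The stricter detection rule gave none for miR-7154-5p, miR-7159-5p, miR-8063, miR-7704 and miR-8072. Signal over background limits the dim miRNAs. No paired analysis was possible because oe-NC and oe-HOTTIP are 1 array each.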
